A study of Rattus norvegicus with 12 samples.

Results

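The MHC class II presentation genes followed here are 10 rat genes: the chains RT1-Ba, RT1-Bb, RT1-Da and RT1-Db1, the editors RT1-DMa, RT1-DMb, RT1-DOa and RT1-DOb, the invariant chain Cd74 and the transactivator Ciita. They were chosen by name, and all 10 were found among the 21568 genes listed for jejunum and the 18703 listed for liver. The tissues came from Wistar Han rats given saline, for which the labels write wild type, or antibiotics by gavage over 2 weeks, with 3 libraries in each of the 4 groups. Neither age nor genetic alteration is given in the labels used here. The antibiotics were given at 5 mL/kg. The solution held vancomycin at 10 g/L, with neomycin, metronidazole and ampicillin each at 20 g/L. Amphotericin B, which acts on fungi, was added at 0.2 g/L. The labels do not say whether jejunum and liver of the same number came from the same rat, nor that replicate libraries came from separate rats, so p-values measure the spread between these libraries.

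Class II molecules are pairs of an alpha and a beta chain that carry peptides from the endosome to the cell surface for CD4+ T cells. The rat RT1-D pair corresponds to human HLA-DR and the RT1-B pair to HLA-DQ. The invariant chain blocks the groove until it is cleaved, RT1-DM then exchanges the remaining fragment for other peptides, and RT1-DO restrains RT1-DM. Ciita switches on these genes without binding DNA itself, through the RFX and NF-Y complexes that sit on the X and Y boxes of their promoters. Dendritic cells, macrophages and B cells express class II constantly, and the villus epithelium of the rodent small intestine also carries it.

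The promoter stretches below are shown so that the genes can be compared for letters of the X and Y boxes. RefSeq tables (GRCr8) held promoters for 8 of the 10 genes. Each line runs 5′ to 3′ toward the gene, and capitals mark CCTAGNNAC (start of the X box), ACNGATG (end of the X box, a motif chosen after the sequences were seen, whose first letters can overlap the former) and GATTGG (Y box). The chains of the RT1-D and RT1-B pairs come first.
RT1-Da (chr20:4515320-4515378, plus strand): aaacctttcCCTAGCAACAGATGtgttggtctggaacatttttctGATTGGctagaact
RT1-Db1 (chr20:4560230-4560288, minus strand): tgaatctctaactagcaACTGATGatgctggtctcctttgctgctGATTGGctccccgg
RT1-Ba (chr20:4576968-4577026, plus strand): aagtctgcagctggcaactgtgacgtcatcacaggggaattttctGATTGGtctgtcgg
RT1-Bb (chr20:4604167-4604225, minus strand): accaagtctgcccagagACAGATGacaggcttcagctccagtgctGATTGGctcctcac
RT1-DMa (chr20:4712387-4712445, minus strand): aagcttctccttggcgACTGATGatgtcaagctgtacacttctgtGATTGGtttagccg
RT1-DOa (chr20:4758518-4758576, minus strand): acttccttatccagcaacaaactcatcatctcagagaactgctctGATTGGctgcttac
RT1-DOb (chr20:4627594-4627652, minus strand): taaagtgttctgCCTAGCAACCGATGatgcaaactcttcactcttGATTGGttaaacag
Cd74 (chr18:56526978-56527037, plus strand): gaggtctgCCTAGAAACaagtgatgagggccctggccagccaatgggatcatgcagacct

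The Y box letters stood in 7 of the 8 promoters on the coding strand, between 44 and 108 bases before the transcript start. Over all 33469 promoters of the same length, 14.8% held them on either strand. Letters of the X box, by one motif or the other, stood on the coding strand in 6 of the 8, and CCTAGNNAC alone in 3. In all promoters, searched on both strands, 4.34% held CCTAGNNAC and 10.2% held ACNGATG. The end of the X box and the Y box occurred together in 1.41% of all promoters, and in RT1-Da, RT1-Db1, RT1-Bb, RT1-DMa and RT1-DOb they were 19 to 22 bases apart. ACNGATG was chosen with these sequences known, so its matches in the members cannot be weighed against these shares. Cd74 differed in layout, with its X box letters 220 bases before the start and no exact GATTGG in the window. Its printed stretch holds ccaatg, which is close to GATTGG read on the opposite strand but was not counted. Promoters without a match may hold variants of these letters. These are matches of letters, not measured binding sites.

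**Figure D1:**
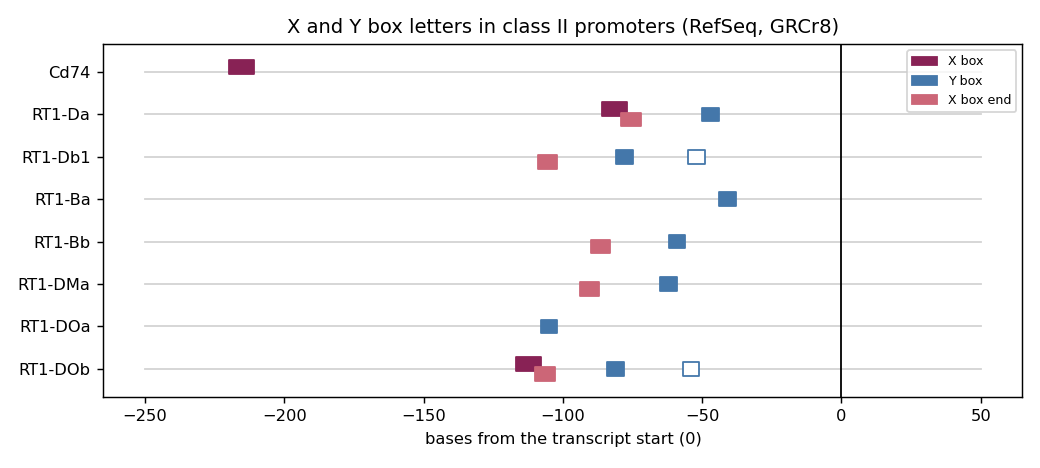
Positions of the X box, X box end and Y box letters in 8 promoters, as bases from the transcript start (filled boxes, coding strand; open boxes, opposite strand). In 5 genes the X box end lies 19 to 22 bases before the Y box, and the X box letters of Cd74 lie 220 bases before the start.

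Libraries held 14592126 to 19318616 recovered reads. Values below are normalized counts, the reads divided by 1 factor per library, unless another scale is named. In jejunal saline library 3, 1 read was worth 2.15 normalized counts, against 0.630 to 1.13 in the other jejunal libraries. A given value there rests on fewer reads, although the library was not shallow, with 18224818 recovered reads. Within the liver table, the 8 hepatocyte markers summed to between 835658 and 1566500, and within the jejunal table the 7 enterocyte markers listed summed to between 31463 and 66632. In the other tissue's table the hepatocyte markers summed to between 15469 and 25712 and the enterocyte markers to between 1136 and 3541. The B cell gene Ms4a1 was at 0 to 10.8 in jejunum and 0 to 3.06 in liver. The 10 B cell markers together summed to between 325 and 703 in jejunum and between 114 and 175 in liver. The macrophage gene Csf1r was at 129.8 to 393.6 in jejunum and 512 to 1138 in liver. Smooth muscle markers in jejunum (2 of 8 called higher, median log2 fold change 1.56) summed to between 43555 and 128681 in saline and between 168277 and 186598 with antibiotics. Adipocyte markers there (0 of 8 called, median −2.35) summed to between 7750 and 50272 and between 3484 and 8057. Of all jejunal genes 1.28% were called. At an unadjusted p under 0.05 (limma) there were 8 of 8 smooth muscle and 6 of 8 adipocyte markers, against 22.2% of all genes. How far this makeup bears on the class II values was not tested.

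Per unit of length, Cd74 was the most abundant of the 10 genes in all 4 groups. Its level in jejunum was 157 ± 46.8 FPKM (SD, n = 3) with saline and 97.8 ± 35.9 FPKM with antibiotics. In liver it was 107.6 ± 28.8 and 77.6 ± 41.3 FPKM. RT1-Da came second everywhere, at 32.7 ± 13.2 FPKM in saline jejunum and 21.7 ± 3.71 FPKM in saline liver, and its libraries did not overlap those of Cd74 in either.

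Behind these the order differed between the tables. In saline jejunum RT1-Bb (17.6 ± 9.56 FPKM) was followed by RT1-Ba (7.28 ± 5.37), RT1-Db1 (5.54 ± 2.05) and RT1-DMb (4.07 ± 5.09), and each overlapped its neighbour in the order. In saline liver RT1-Db1 (7.01 ± 2.00 FPKM) stood ahead of RT1-Bb (5.27 ± 2.75), RT1-Ba (3.56 ± 0.709) and RT1-DMb (2.96 ± 3.91), and these also overlapped. Ciita, RT1-DOa, RT1-DOb and RT1-DMa were the least abundant, from 0.306 to 1.66 FPKM in saline jejunum and from 0.0584 to 0.519 FPKM in saline liver. Since the tables were normalized separately, FPKM were not tested between tissues.

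Ratios within a library do not depend on its scaling. Cd74 exceeded RT1-Da in 12 of 12 libraries, by 3.73 to 6.14 times per unit of length (median 4.47). RT1-Da exceeded RT1-Db1, its partner chain, in 12 of 12, by 2.68 to 8.73 times, with a median of 5.93 in jejunum and 3.64 in liver. The highest liver ratio, 8.37, came from antibiotics library 3, where the other 5 libraries ran from 2.68 to 4.75. For the RT1-B pair the beta chain was the more abundant in 12 of 12, by 1.01 to 4.59 times, with medians of 2.42 in jejunum and 1.27 in liver. Ratios of FPKM depend on the gene lengths in the files and on how reads of similar chains were assigned, which is not given in the sources used here.

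**Figure D2:**
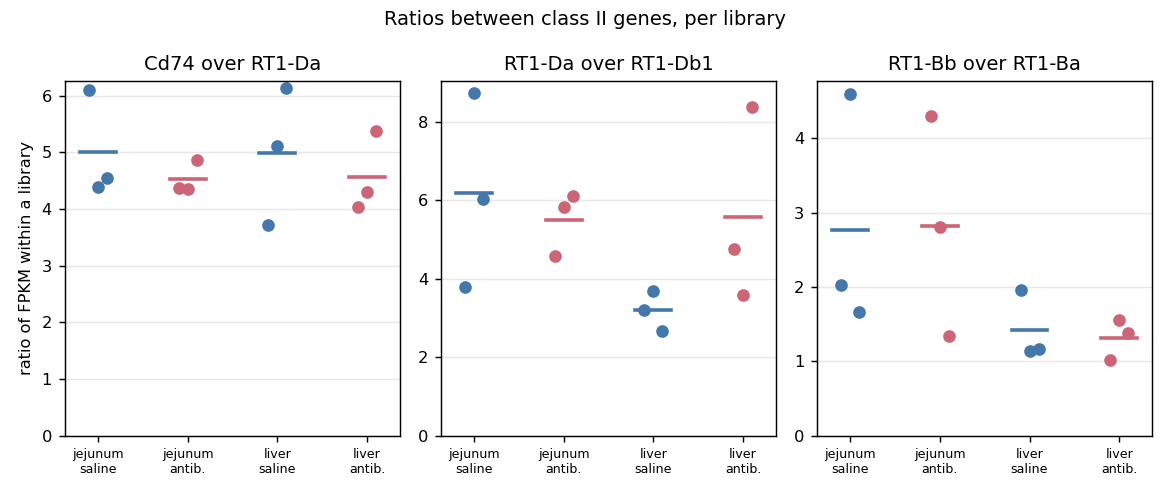
Ratios of FPKM between pairs of class II genes in each library (points, linear axis from 0; bars, group means of 3). The ratio of Cd74 to RT1-Da stayed between 3.73 and 6.14 in all 12 libraries, while that of RT1-Da to RT1-Db1 ran from 2.68 to 8.73.

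The first comparison asked how these genes differed in jejunum after antibiotics. Most means were lower with antibiotics, by less than the spread between libraries allows to call. Cd74, RT1-Da, RT1-Db1, RT1-Ba, RT1-Bb and Ciita each had a log2 fold change (antibiotics over saline) between −0.86 and −0.48. No gene of the 10 passed limma (adjusted p of 0.247 to 0.977), against 1.28% of the 19450 genes tested. At an unadjusted p under 0.05 there were 0, against 22.2% of all genes, and 0 of the 10 had groups that did not overlap, against 27.9%. Other tools also called 0 of the 9 genes they gave an adjusted p, edgeR with 0.639% of its genes called, DESeq2 with 11.8% and limma-voom with 1.94%. The median log2 fold change of the 10 was −0.53, against 0.06 over all genes tested, and 7 of 10 were below 0 against 47.1% of all genes. In bulk tissue, fewer class II cells and less class II RNA per cell cannot be told apart.

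Cd74, on chromosome 18 from 56071478 to 56080849 in the files' coordinates (build not given in the sources used here), was at 2254, 2598 and 3871 in saline libraries 1 to 3. In antibiotics libraries 1 to 3 it was at 1144, 1842 and 2482. The highest antibiotics library lay between the lower saline libraries, so the groups overlapped. The log2 fold change was −0.71, with a 95% interval of −1.45 to 0.04 (limma adjusted p = 0.247). It was −0.48 without saline library 3 and −0.40 without antibiotics library 1.

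RT1-Da, the alpha chain of the RT1-D pair, was at 665, 1063 and 1533 with saline and at 470.1, 759.8 and 918 with antibiotics. Saline library 1 lay inside the antibiotics range. Its log2 fold change was −0.57 (interval −1.36 to 0.21). RT1-Db1, the partner beta chain, was at 224.4, 155 and 325 and then at 131, 166 and 192, so that 2 of the antibiotics libraries lay above saline library 2. Its log2 fold change was −0.48 (interval −1.24 to 0.28).

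The RT1-B chains had wider ranges among the saline libraries. RT1-Ba was at 58.6, 95.3 and 241 with saline and at 24.9, 76.2 and 115.9 with antibiotics. RT1-Bb was at 354, 1301 and 1194 and then at 318, 637 and 464. For both chains saline library 1 lay inside the antibiotics range. Their log2 fold changes were −0.86 (interval −2.28 to 0.57) and −0.85 (interval −1.89 to 0.19). Without saline library 1, RT1-Bb passed (log2 fold change −1.45, limma adjusted p = 0.0223), in a fit where 9.79% of all genes passed. Without saline library 2 its log2 fold change was −0.52, and over all its alternatives adjusted p ran from 0.0223 to 0.929.

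Ciita, on chromosome 10 from 5213350 to 5260608, was at 44.5, 93.9 and 225.8 with saline. With antibiotics it was at 44.1, 58.4 and 80.6. The saline libraries had an SD of 93.8 and the antibiotics libraries one of 18.4, and the groups overlapped. The log2 fold change was −0.72 (interval −1.98 to 0.54). In normalized counts, saline library 3 was the highest of the 6 libraries for Ciita, Cd74, RT1-Da, RT1-Db1 and RT1-Ba. Antibiotics library 1 was the lowest for these and for RT1-Bb. By recovered reads saline library 3 was the highest for none of these genes. For Cd74 it had 1800 reads, against 3764 in saline library 2 and 3941 in antibiotics library 3.

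The RT1-DO genes are known mainly from B cells and the thymus, and both had higher means with antibiotics than with saline. RT1-DOa was at 26.3, 26.2 and 30.1 with saline and at 24.9, 36.4 and 39.0 with antibiotics. RT1-DOb was at 6.07, 5.52 and 10.8 and then at 6.78, 7.62 and 12.6. In both genes the groups overlapped. Their log2 fold changes were 0.25 for each, with intervals of −0.91 to 1.402 and −1.48 to 1.98.

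**Figure D3:**
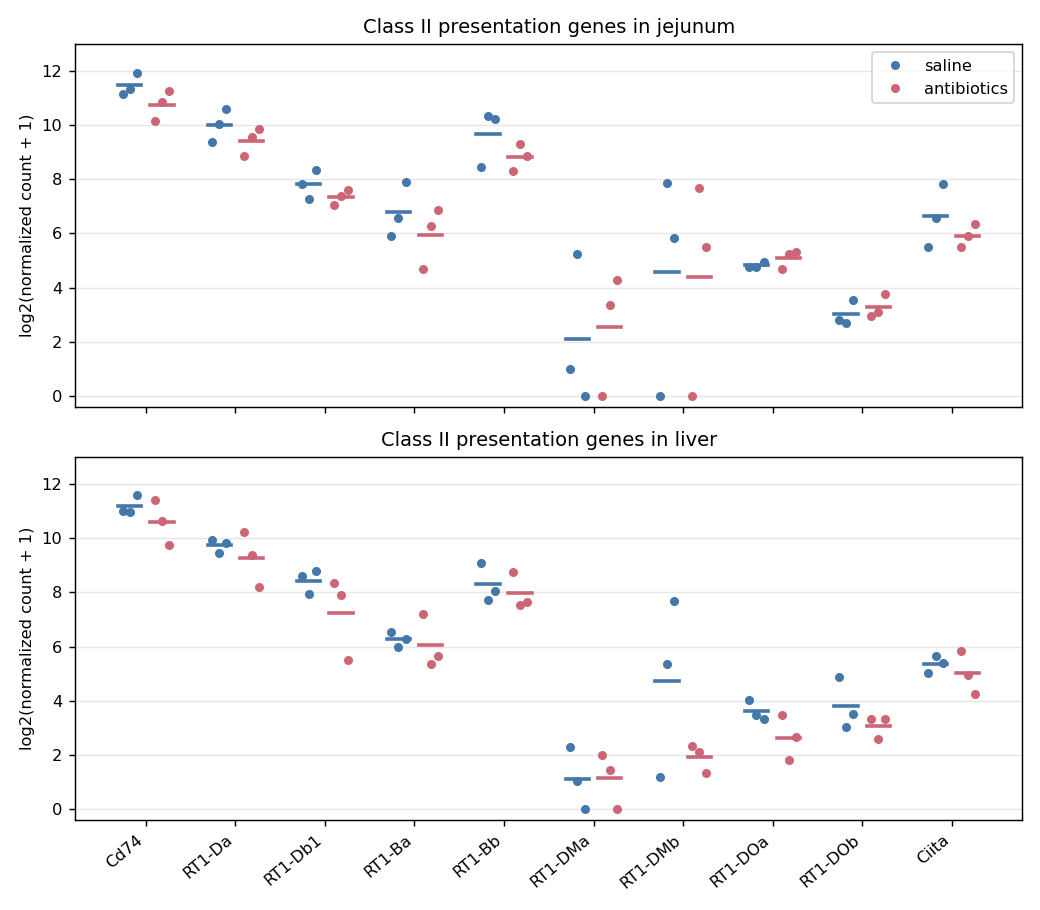
Log2 of the normalized count plus 1 of the 10 genes in each library (points; bars, means of 3), in jejunum above and liver below. Saline and antibiotics libraries overlap for each gene, and RT1-DMa and RT1-DMb spread from 0 upward within a group.

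Liver was compared in the same way. There 9 of the 10 genes were below 0, against 50.3% of all genes, with a median log2 fold change of −0.53 against −0.01 over all genes tested. None passed limma (adjusted p of 0.252 to 0.979), while 12.8% of the 16540 genes tested did. At an unadjusted p under 0.05 there were 0, against 31.7% of all genes, and 0 had groups that did not overlap, against 37.8%. The filters of edgeR and limma-voom kept 6 of the 10, without the RT1-DM and RT1-DO genes, and 0 of these passed, against 17% and 18.1% of all genes. DESeq2 gave 9 an adjusted p and called 1, RT1-DMb.

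Cd74 was at 2041, 1993 and 3120.1 in saline liver. It was at 2690.3, 1599 and 869 with antibiotics, so antibiotics library 1 lay above 2 of the saline libraries. The log2 fold change was −0.59 (interval −1.48 to 0.30, limma adjusted p = 0.337), and −0.17 without antibiotics library 3. RT1-Da was at 985, 701 and 914 and then at 1199.8, 668 and 290.3, a range among treated libraries that spans all 3 saline values. Its log2 fold change was −0.48 (interval −1.59 to 0.63), and it was 0.06 without antibiotics library 3.

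RT1-Db1 had the lowest mean relative to saline among the 4 chains of the antigen-presenting pairs. It was at 391, 242 and 436 with saline and at 323, 238 and 44.3 with antibiotics. Its log2 fold change was −1.19 (interval −3.05 to 0.67), and −0.32 without antibiotics library 3, which alone was far below the rest. In recovered reads that library had 59, against 237 to 382 in the other 5.

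The RT1-B chains did not share that low value. RT1-Ba was at 93.0, 62.3 and 76.5 with saline and at 144, 40.2 and 48.8 with antibiotics. RT1-Bb was at 543, 211 and 265.9 and then at 435, 186 and 199.6. Antibiotics library 1 was the highest of the 6 for RT1-Ba and saline library 1 for RT1-Bb. The log2 fold changes were −0.21 (interval −1.22 to 0.80) and −0.30 (interval −1.31 to 0.70).

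Ciita was at 31.8, 49.0 and 41.1 in saline liver and at 56.8, 30.2 and 18.01 with antibiotics. Antibiotics library 1 was the highest and library 3 the lowest of the 6, as for RT1-Da. The log2 fold change was −0.34 (interval −1.30 to 0.63). RT1-DOa was at 15.3, 10.2 and 9.13 and then at 9.96, 2.51 and 5.25, and RT1-DOb at 28.0, 7.15 and 10.3 and then at 8.96, 5.03 and 9.003. The corresponding log2 fold changes were −0.98 (interval −2.26 to 0.30) and −0.72 (interval −2.02 to 0.58), on 3 to 22 recovered reads a library.

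**Figure D4:**
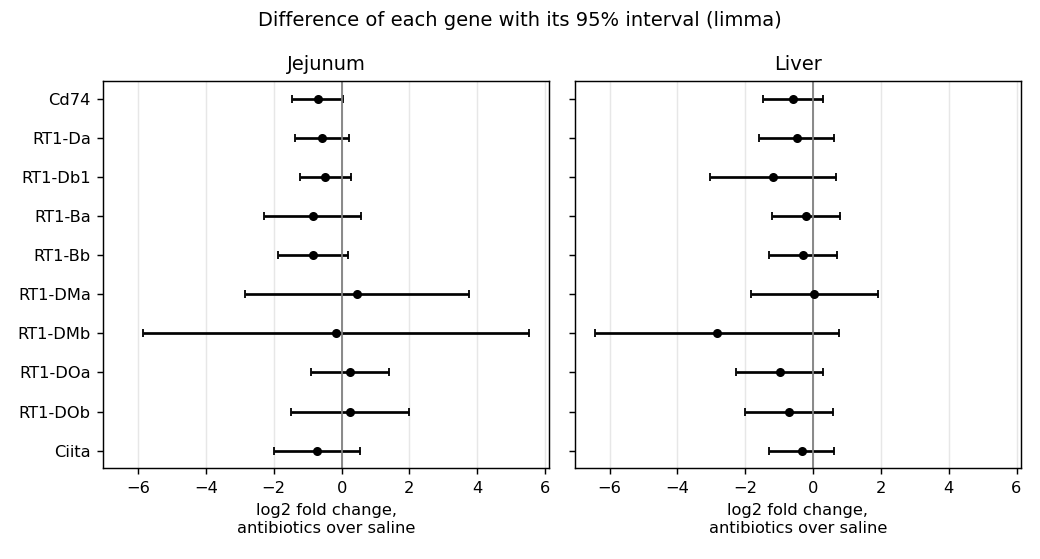
Log2 fold change of each gene, antibiotics over saline, with its 95% interval from limma (n = 3 per group). In both tissues the intervals of all 10 genes include 0, and the widest are those of RT1-DMb, in jejunum from −5.86 to 5.53 and in liver from −6.42 to 0.78.

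The genes of the peptide editor RT1-DM were read in some libraries and nearly not in others of the same group. RT1-DMb had 0, 332 and 26 recovered reads in jejunal saline libraries 1 to 3, and 0, 241 and 70 in the antibiotics libraries. In liver it had 1, 39 and 180 reads with saline and 4, 4 and 2 with antibiotics. In jejunum each group ran from 0 to at least 241 reads, and in liver only saline libraries 2 and 3 exceeded 4 reads. A count of 0 allows up to 3 reads, that is 3.03 normalized counts in jejunal saline library 1 and 3.39 in antibiotics library 1, and covers counting error only.

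Such a pattern was uncommon. Of the 10537 genes that reached 100 reads in at least 1 jejunal saline library, 49 (0.465%) had at most 1 read in another library of the group, and RT1-DMb was among them. It was also among the 14 of 11086 such genes (0.126%) in antibiotics jejunum and the 15 of 8126 (0.185%) in saline liver. These limits describe a pattern already seen in RT1-DMb, so its place among these genes is not a test. The other members that reached 100 reads had more than 1 read in every library of the group. RT1-DMb lies on chromosome 20 from 3945601 to 3952846, and neither it nor any other member overlaps another listed gene.

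RT1-DMa, the partner alpha chain, had at most 1 read in the jejunal libraries where RT1-DMb had 0. It had 1, 54 and 0 reads in saline jejunum and 0, 11 and 29 with antibiotics. In liver it had 3, 1 and 0 reads with saline and 3, 2 and 0 with antibiotics, even in saline library 3 with 180 reads of RT1-DMb. RT1-DM is a dimer that needs both chains.

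For RT1-DMb in liver, the log2 fold change was −2.82 (interval −6.42 to 0.78, limma adjusted p = 0.252). In normalized counts this compares 1.27, 39.8 and 205 with 3.98, 3.35 and 1.5004. Saline library 1 lay below all 3 antibiotics libraries but none of the others did, so the groups overlapped. Without that library the gene passed (−4.60, limma adjusted p = 0.0166, in a fit where 5.57% of all genes passed). DESeq2 on all libraries also called it (−4.81, adjusted p = 0.0148, with 22.2% of its genes called), as did the authors' deposited table (−4.81, adjusted p = 0.0151), where 16.5% of genes pass. Without saline library 3 it was −1.35, and limma adjusted p ran from 0.0166 to 0.506 over the libraries left out.

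The jejunal log2 fold changes of RT1-DMa and RT1-DMb were 0.46 (interval −2.85 to 3.77) and −0.17 (interval −5.86 to 5.53), and that of RT1-DMa in liver was 0.04 (interval −1.83 to 1.92). These intervals are too wide to show a change of either sign.

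**Figure D5:**
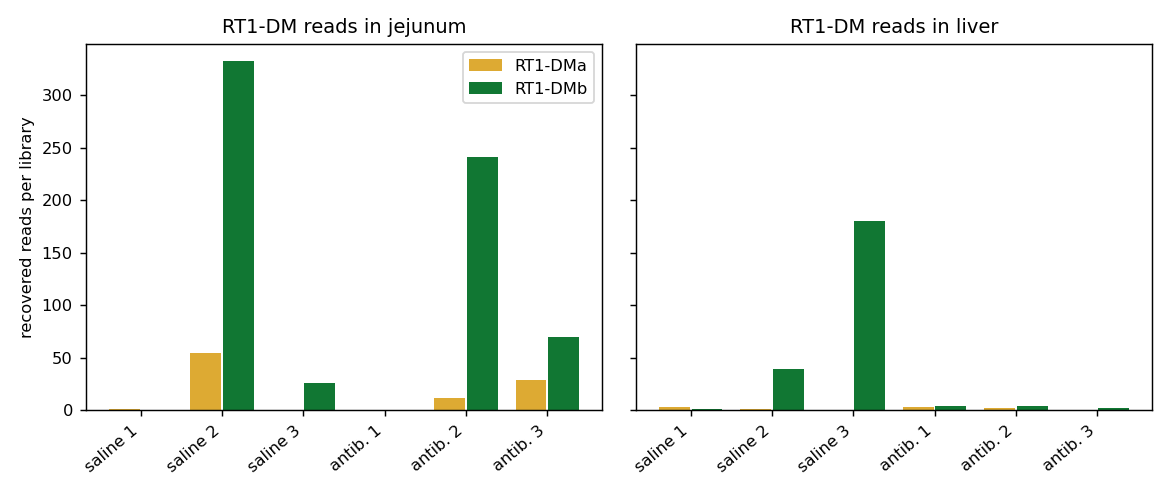
Recovered reads of RT1-DMa and RT1-DMb in each library (bars from 0). RT1-DMb has 332 and 241 reads in jejunal saline library 2 and antibiotics library 2 and 0 in the libraries numbered 1 of the same groups.

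The next comparison asked whether the response differed between tissues, and whether saline liver and jejunum differed, in 1 edgeR fit on recovered reads. The response of 0 of the 10 genes differed between tissues (edgeR adjusted p of 0.298 to 0.951), against 0.0564% of 14187 genes tested. At an unadjusted p under 0.05 there were 0, against 19.8%. DESeq2 called 0 of the 8 it gave an adjusted p (6.67% of all genes) and limma-voom 0 of 10 (0.317%). The estimates were 0.13 for Cd74, 0.25 for RT1-Da and −4.67 for RT1-DMb, on the log2 scale as liver minus jejunum.

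Between saline liver and saline jejunum 50.4% of genes passed, yet 0 of the 10 did (edgeR adjusted p of 0.0814 to 0.900). At an unadjusted p under 0.05 there was 1, RT1-DOb, against 56.5% of all genes, and DESeq2 (49.5% of all genes called) and limma-voom (48.5%) also called 0. Cd74 was at 152 ± 40.1 CPM in jejunum and 174 ± 45.8 CPM in liver (log2 difference 0.19), and RT1-Da at 56.8 ± 21.1 and 63.1 ± 10.5 CPM (0.16). RT1-Bb was the lower in liver, at 49.5 ± 26.5 and 24.7 ± 12.9 CPM (−0.99, edgeR adjusted p = 0.108), and RT1-Db1 the higher, at 12.3 ± 4.22 and 25.9 ± 7.28 CPM (1.09, edgeR adjusted p = 0.0958). Ciita was at 6.29 ± 4.71 and 2.96 ± 0.638 CPM (−1.06, edgeR adjusted p = 0.129). Leaving out 1 library brought some of these past the threshold. RT1-Bb passed without jejunal saline library 1 (−1.38, edgeR adjusted p = 0.0202) or liver saline library 1 (−1.4999, edgeR adjusted p = 0.0372). Ciita passed without jejunal saline library 1 (−1.45, edgeR adjusted p = 0.0352), and RT1-Db1 without liver antibiotics library 3 (1.07, edgeR adjusted p = 0.0136). In those 3 fits 46.6%, 44.6% and 47.9% of all genes passed. Liver antibiotics library 3 is in neither saline group, so it entered this comparison only through the filter, scaling and spread shared by all libraries. The log2 difference of RT1-Db1 was 1.09 with it and 1.07 without. Why the other calls moved was not tested.

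Over the 12 libraries, the gene nearest to Cd74 in profile was RT1-Da. The measure was the root mean square distance in log2(CPM + 1), each gene centred on its mean, over 9452 named genes with a mean of at least 5 CPM. It was 0.21 for RT1-Da, against a median of 0.84 over all genes ranked. RT1-Ba ranked 29 (0.40), RT1-Db1 187 (0.46) and RT1-Bb 3055 (0.71). The 5 nearest genes that are not class II genes were LOC300249, AABR07071891.1, G4, Tpt1 and Nop53, at 0.28 to 0.35. Genes that vary little are near to Cd74 by this measure too, and the libraries share tissue and scaling.

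Other genes of the class II route gave 1 call, below the share of all liver genes called (12.8%). The list of further class II chains, promoter factors, processing enzymes and costimulators had 19 genes tested in jejunum, 0 of which passed limma (2 at an unadjusted p under 0.05, median log2 fold change 0.03). In liver 1 of 18 passed, Nfyb, the B subunit of NF-Y, which fell from 431 ± 39.3 to 217 ± 60.6 (log2 fold change −1.02, limma adjusted p = 0.0242). Rfx5, the RFX subunit that names the complex, ran from 438 to 462 in saline jejunum and from 372 to 586 with antibiotics. In liver it ran from 100.4 to 158 and from 99.8 to 119.5.

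Class I genes, which present peptides to CD8+ T cells, were examined beside them. In jejunum 16 of 20 were below 0, against 47.1% of all genes, and 9 had an unadjusted p under 0.05, where 22.2% of all genes did. The summed level ran from 25508 to 39177 in saline and from 20381 to 21842 with antibiotics. Groups without overlap were found there for 27.9% of all single genes. Of the 20 in jejunum 1 passed, where 1.28% of all genes did. It was the immunoproteasome subunit Psmb9, which fell from 1124 ± 729 to 245.8 ± 48.9 (−2.00, limma adjusted p = 0.0485). In liver Psmb9 fell from 1221 ± 339.5 to 608 ± 86.1 (−0.98, 0.0275), the class I light chain B2m from 39217 ± 16559 to 15601 ± 2045 (−1.25, 0.0343), and the chaperone Canx rose from 4414 ± 832 to 7988 ± 802 (0.87, 0.0320). Those were the 3 of 20 that passed there, a share near the 12.8% of all liver genes. B2m ran from 9547 to 12071 in saline jejunum and from 6024 to 7600.4 with antibiotics (−0.62, limma adjusted p = 0.204). The jejunal fall of Psmb9 passed in 6 of 18 alternatives, and without saline library 2 it was −1.51 (limma adjusted p = 0.0798). In the other fits with 1 library left out it did not pass without saline library 3 (0.0883) or antibiotics library 1, 2 or 3 (0.202, 0.111 and 0.205).

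Interferon gamma, the main inducer of Ciita outside professional presenting cells, was at the detection limit in liver. Ifng was at 0 in 5 of 6 liver libraries and at 3.35 in antibiotics library 2, and no gene of that name was listed for jejunum. Irf1, a transcription factor that it induces, ran from 401 to 1219 in saline jejunum and from 548 to 611 with antibiotics. In liver Irf1 ran from 362 to 436 and from 352 to 414. Among 17 genes of the interferon gamma list tested in jejunum 0 passed limma (1 at an unadjusted p under 0.05). Among 16 in liver 4 fell and 1 rose, where 12.8% of all genes passed. Of these 16, 8 were below 0 and 8 above (median log2 fold change −0.01). The summed level of the list was higher with antibiotics, from 7966 to 8612, than in saline, from 6253 to 7781. In liver 37.8% of all single genes had groups without overlap. The calls were led by the chemokines Cxcl9, from 185 ± 49.7 to 47.9 ± 12.8 (−1.92, limma adjusted p = 0.00842), and Cxcl11, from 346 ± 89.9 to 161 ± 5.03 (−1.07, 0.0169), and by the GTPase Gbp4, given at the end.

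Among markers of cells that carry class II, the macrophage list held most of the calls in liver. Of 11 macrophage and Kupffer cell markers tested there, 4 fell and 0 rose (median −0.56), where 12.8% of all genes passed, and their summed level ran from 12839 to 18587 in saline and from 8183 to 9757 with antibiotics. Cd68, a lysosomal protein of macrophages, fell from 649 ± 110.1 to 281 ± 99.6 (−1.24, limma adjusted p = 0.0169). The complement gene C1qc fell from 2501 ± 499 to 1355 ± 104 (−0.87, 0.0270), and the Kupffer cell lectin Clec4f from 4251 ± 1183 to 2194 ± 226 (−0.92, 0.0371). Of 10 dendritic cell markers 1 passed, near that share, with 5 below 0 and 5 above. It was Irf8 (351 ± 26.7 to 211 ± 34.4, −0.74, 0.0349), and the summed level of the dendritic cell list ran from 611 to 656 and from 361 to 446. Groups without overlap, as in the macrophage and dendritic cell sums, were found for 37.8% of all single liver genes. In antibiotics library 3, where Cd74, RT1-Da, RT1-Db1 and Ciita were lowest, Cd68 (396), Csf1r (829) and the leukocyte gene Ptprc (205.6) were the highest of the 3 treated libraries. That is 1 library, and the part of the cell markers in the class II values was not tested.

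The liver calls depended on which libraries were in the fit, while the fold changes moved less. Of the 11 genes named from the lists for liver, 0 passed without saline library 3 (limma adjusted p of 0.0636 to 0.160) and 11 without saline library 2. Without saline library 1, 3 passed, and without antibiotics libraries 1, 2 and 3, 1, 1 and 3 did. Their log2 fold changes without a library were 0.754 to 1.27 times those with all libraries, and without saline library 3 that of Cxcl9 was −1.86 and that of B2m −1.22. Calls over all liver genes also fell without saline library 3, from 2121 to 74.

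In jejunum the same cell markers gave 0 limma calls: 0 of 9 macrophage markers (median 0.23), 0 of 10 dendritic cell markers (−0.10), 0 of 10 B cell markers (0.62), 0 of 8 T cell markers (0.07), 0 of 6 plasma cell markers (−0.58) and 0 of 5 leukocyte genes (0.16), with the median log2 fold change in parentheses. At an unadjusted p under 0.05 there were 1, 3, 0, 0, 2 and 0 of them, where 22.2% of all genes were under it. The dendritic cell markers summed to between 997 and 1985 in saline and between 473 and 802 with antibiotics, with 5 below 0 and 5 above. Irf8 was a large part of that sum, at 484, 1481 and 1254 with saline and at 194, 268.5 and 453 with antibiotics (log2 fold change −1.75, limma adjusted p = 0.0694). Without Irf8 the sums ran from 449.5 to 513 and from 279 to 431. Groups without overlap, as in both sums, were found for 27.9% of all single genes. Ptprc, on all leukocytes, ran from 67.6 to 85.9 and from 121 to 128, higher in each antibiotics library, and the dendritic cell integrin Itgax from 15.2 to 32.3 and from 22.6 to 68.0. In liver 0 of 10 B cell markers (−0.33), 0 of 7 T cell markers (−0.51), 0 of 6 plasma cell markers (0.19) and 0 of 5 leukocyte genes (−0.48) passed limma, with 1, 2, 0 and 2 at an unadjusted p under 0.05, where 31.7% of all genes were under it. Itgax ran there from 17.8 to 22.5 and from 17.9 to 27.8.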

How the data were processed

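Per the submitters' processing notes, CASAVA 1.4, HISAT2 2.0.5 and DESeq2 1.20.0 were used; the genome build, counting tool and strand setting are not given in the sources used here, and similar chains may share reads. The deposited count columns hold normalized signal, whole reads divided by 1 factor per library by the authors: 100% of values came back whole within 0.01 reads. The authors also deposited FPKM, log2 fold changes, and p-values with adjusted values, per the file headers. Members, lists and tests were chosen with earlier results of these data known. Limma 3.58.1 (trend, robust; R 4.3.3) tested log2(normalized count + 1) for genes whose mean normalized count was 1 or more, with Benjamini-Hochberg adjustment over all genes of a tissue and a threshold of 0.05. The tissue comparisons used edgeR 4.0.16 (quasi-likelihood, TMM, filterByExpr) on recovered reads of genes with 1 identifier in both tables. DESeq2 1.42.0 was an alternative. Named genes are all members, up to 3 genes with the smallest p among those past the threshold per list (lists of the tissues' own cells are given as sums), the 5 genes nearest to Cd74, and Rfx5, Ifng, Irf1, B2m, Ptprc, Ms4a1, Itgax, Cd68 and Csf1r; some other genes of the rule are not reported here. Scripts were tested on simulated data. Replicate libraries differed by more than sampling noise (chi-square per degree of freedom at least 39.9).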

Additional observations from a re-analysis of the deposited data

Results flagged for a closer look

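Gbp4, an interferon-induced GTPase, had lower values in each antibiotics library than in any saline library in liver, and higher values in jejunum. Groups without overlap were found for 37.8% of all genes in liver and 27.9% in jejunum. In liver it was at 22.9, 20.4 and 31.95 with saline and at 2.99, 10.9 and 6.002 with antibiotics (log2 fold change −1.89, limma adjusted p = 0.0419). In jejunum it was at 6.07, 2.76 and 8.60 and then at 15.8, 9.32 and 19.5 (1.27, limma adjusted p = 0.375). The test of the difference between tissues did not pass (−3.40, edgeR adjusted p = 0.0917).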

How the results depend on the processing

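Within a tissue, no member with a value changed sides of the threshold under the pseudocounts, filters, scalings, replicate block, edgeR or limma-voom. The filter of 1 CPM left 9 members in jejunum and 7 in liver, and edgeR and limma-voom left 9 and 6, without RT1-DMb in liver. The count of jejunal members past it was 0 to 1 and that of liver members 0 to 1 with 1 library left out, 1 in liver with DESeq2, and that for saline liver against jejunum 0 to 2. All jejunal genes past the threshold numbered 249, and 160 with a pseudocount of 0.1, 59 with library totals, 97 and 125 with edgeR (TMM and RLE), 1800 with DESeq2, 37 with the correction for gene length and 1 to 1902 with 1 library left out. In liver 2121 became 74 to 4416. Replicate numbers were not shown to pair libraries. Same-numbered deviations over genes correlated at 0.0802, 0.105 and 0.0172 in jejunum, against −0.0958 to 0.0222 for differently numbered ones. In liver they did so at 0.0498, −0.0547 and −0.0817, against −0.0762 to 0.13. Between tissues, same-numbered antibiotics libraries gave 0.0699, 0.0977 and 0.184, against −0.126 to 0.049. Saline libraries gave 0.00321, 0.0315 and −0.00275, against −0.0206 to 0.0206. Whether same-numbered libraries share a rat was not tested. With the replicate block 1625 jejunal genes passed, and the block moved the tissue difference of RT1-DMa to −0.38. With library totals the median log2 fold change of all genes was 0.51 in jejunum, against 0.06, and 0.14 in liver, against −0.01. This scaling gave 0.023 for RT1-Db1 and 0.32 for RT1-DMb in jejunum. There it also gave −0.20 for Cd74, −0.074 for RT1-Da, −0.36 for RT1-Ba, −0.35 for RT1-Bb and −0.22 for Ciita. For RT1-DMa, RT1-DOa and RT1-DOb it gave 0.55, 0.73 and 0.70. Limma-voom gave 0.021 for jejunal RT1-DMb, −0.33 and −0.0074 for the tissue difference of RT1-DMa and Ciita, and 0.10 for RT1-Ba in liver against jejunum. Jejunal RT1-DMa was −0.57 and −0.54 with edgeR (TMM and RLE) and −0.49 with DESeq2, which in liver gave 0.0058 for RT1-Ba and −0.058 for RT1-DMa.

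Without 1 library, signs turned for RT1-DMa (−0.59 to 2.04) and RT1-DMb (−2.45 to 2.03) in jejunum, and in liver for RT1-Ba (−0.77 to 0.14), RT1-Bb (−0.70 to 0.092), RT1-Da (−0.96 to 0.062), RT1-DMa (−0.50 to 0.63) and Ciita (−0.75 to 0.048). For the tissue difference they turned for Cd74 (−0.35 to 0.46), RT1-Da (−0.33 to 0.65), RT1-Db1 (−0.89 to 0.11), RT1-Ba (−0.050 to 1.27), RT1-DMa (−3.68 to 1.78) and Ciita (−0.11 to 1.04). For saline liver against jejunum they turned for Cd74 (−0.042 to 0.44), RT1-Da (−0.080 to 0.47), RT1-Ba (−0.60 to 0.47), RT1-DMa (−3.99 to 1.48) and RT1-DMb (−1.70 to 2.18). The cause was not tested. In liver RT1-DMa, RT1-DOa and RT1-DOb rest on few reads, so depth limits what could be detected.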
